A study of Drosophila melanogaster with 8 samples.

Results

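The mRNAs described here encode the proteins of the small subunit of the cytosolic ribosome. All genes of the table whose FlyBase symbol starts with RpS were taken, together with stubarista (sta), which encodes the small-subunit protein RpSA, and this gave 37 of the 13970 genes. The samples are 8 libraries of double-stranded RNA from Drosophila melanogaster larvae collected 4 days after egg laying. Larvae were separated into a cytosolic and a mitochondrial fraction, 5 μg of RNA of a fraction was precipitated with 5 μg of the J2 antibody, which binds double-stranded RNA, and 100 ng of the precipitated RNA was sequenced. There were 4 groups of 2 libraries. Control larvae carried the unmodified genetic background (genotype ";;"), and dmpnpaseKO larvae were homozygous for a frame-shift allele of dmpnpase (CG11337) made by CRISPR/Cas9 (genotype ";;dmpnpase-/dmpnpase-"), which encodes the mitochondrial polynucleotide phosphorylase, an exoribonuclease. Both genotypes shared the white Dahomey (wDah) background. The knockout is 1 line, affects the whole larva and is lethal at the larval stage, and no driver or transgene is involved. The labels do not say whether the 2 libraries of a group came from separate groups of larvae, so the p-values below measure only the spread between these libraries, which may be technical.

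Each small subunit holds 1 copy of each of its proteins, so the mRNAs of these genes are made in similar amounts and are among the most abundant in any growing cell. In flies, loss of 1 copy of many of these genes gives the Minute phenotype of short bristles and slow development. The subunit itself has a head, which closes over the mRNA, a body, where the codon is read, and a platform, from which the mRNA leaves. These mRNAs are transcribed in the nucleus and translated in the cytosol, and none is encoded by the mitochondrial genome, so in the mitochondrial libraries they stand for nuclear-encoded RNA present in that fraction and bound by J2.

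Of the 37 genes, 31 had a mean level of 1 TPM or more over the 8 libraries (TPM, the transcripts of a gene as a share of all transcripts of the library, corrected for length) and were tested. The other 6 (RpS15Ab, RpS19b, RpS5b, RpS10a, RpS28-like and RpS28a) fell below this level. RpS10b and RpS12 have no row under their current identifiers and were not analysed here. Since the deposited values are TPM, the number of reads behind each value is unknown and no counting interval can be given. TPM is a share of the library. The nuclear genes with rRNA in their symbol, among them the 8 pseudogenes used for scaling, together took between 42.7% and 96.6% of it. The libraries therefore differ in how much of the value is left for mRNA. The number of genes above 0 ran from 61 in library 2 of the knockout cytosol to 11051 in library 1 of the knockout mitochondria, and the other 6 libraries listed between 984 and 8757 genes. The targeted gene, dmpnpase, does not check the genotype labels, because it was listed at 0 in 6 libraries, at 0.0197 TPM in control mitochondria 1 and at 0.0415 TPM in knockout mitochondria 1. The mRNAs of the mitochondrial genome were 0.0130% and 0.0612% of the total for control cytosol, 0.676% and 1.85% for control mitochondria, 2.13% and 2.01% for knockout cytosol and 4.69% and 17.4% for knockout mitochondria, so the cytosolic libraries of the knockout held mitochondrial RNA. The 2 mitochondrial rRNAs took from 2.62% in control mitochondria 1 up to 57.1% in control cytosol 2, so they do not follow the fraction labels. Library 2 of the knockout cytosol listed every RpS and RpL gene at 0, and the cytosolic comparisons below are also given without it.

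The RpS mRNAs were near the lower limit of the libraries in the control cytosol and were highest in the mitochondrial fraction of dmpnpaseKO larvae. The 37 genes summed to 3.05 and 8.42 TPM in the control cytosol libraries and to 48.1 and 35.9 TPM in the control mitochondria. They summed to 93.8 TPM in knockout cytosol 1 and to 0 in knockout cytosol 2. In the knockout mitochondria the sums were 1152 and 574 TPM. Both knockout mitochondrial libraries therefore exceeded each of the other 6. The number of the 37 genes above 0 came to 12 and 14 for control cytosol, 33 and 31 for control mitochondria, 32 and 0 for knockout cytosol, and 34 and 32 for knockout mitochondria.

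**Figure D1:**
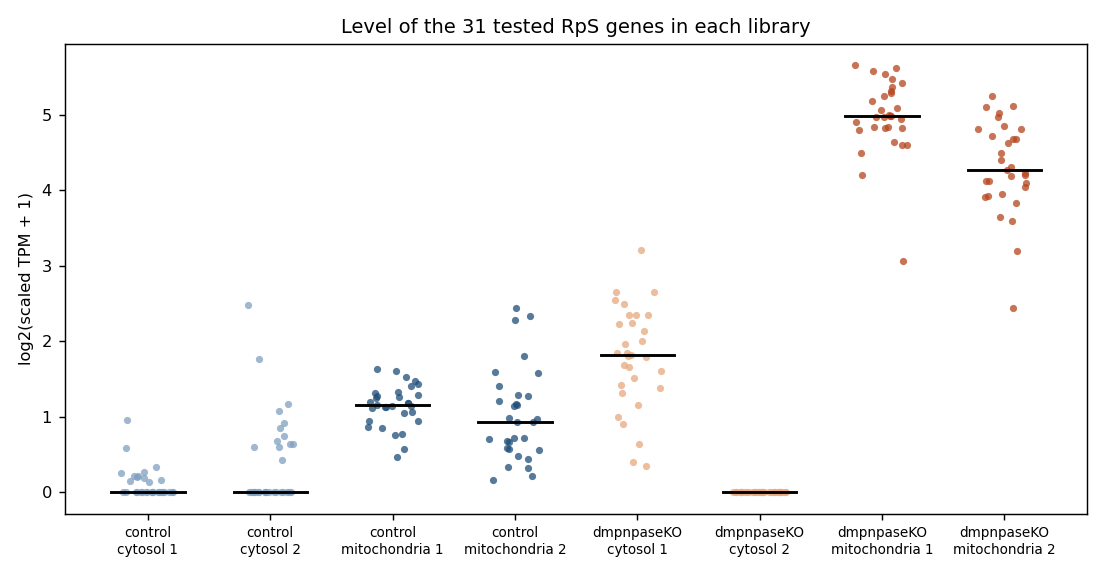
Level of each of the 31 tested RpS genes in the 8 libraries, as log2(scaled TPM + 1), with the rRNA pseudogenes as the scale of every library. Each point is 1 gene and the bar is the median of the library. The medians are 0 and 0 for control cytosol, 1.16 and 0.93 for control mitochondria, 1.82 and 0 in the knockout cytosol and 4.98 and 4.27 in the knockout mitochondria.

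All 31 tested RpS mRNAs were higher in the J2 precipitate of the mitochondrial fraction of dmpnpaseKO larvae than in that of controls. On the log2(scaled TPM + 1) scale the median change was 3.6, from 2.40 for RpS14b to 4.25 for RpS4, and the adjusted p-values of limma lay between 0.000741 and 0.0156. Adding 1 lowers the change of genes at low levels. In TPM the ratio of means was 19.7-fold for RpS14b, beside a median of 22.2-fold over the 31 genes. For each of the 31 genes the lower knockout library lay above the higher control library, by at least 6.44-fold in TPM, the value of RpS24, and by a median of 11.6-fold. Most other tested genes moved the same way. Of all 475 genes tested, 78.7% were called higher and 2.53% lower in the knockout mitochondria, and in 88.8% of them both knockout libraries lay above both controls. The minimum mean level favours genes that are high in the knockout mitochondria, where nuclear-encoded genes held 1.18% and 0.586% of TPM against 0.159% or less in the other 6 libraries, so these shares are in part set by it. With no minimum level, 47.2% of 11606 genes and 27 of 35 RpS genes were called higher, and the median change of all genes was 0.14. The 31 of 31 called must be read against those shares. The median of the RpS genes stood above the median of 2.05 over the 368 other nuclear genes and near that of the 44 tested RpL genes, which encode the large-subunit proteins (44 called higher, median 3.79). The distance from the other genes depends on the value added before the log. With 1 added the medians were 3.6 for RpS and 2.23 over all 475 genes, and with 0.1 added they were 4.33 and 3.47. In such bulk samples, a change in the number of cells of a type and a change in RNA per cell cannot be told apart.

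The size of the change depends on what the libraries are set against. The median log2 change of all 475 genes was 2.23 with the rRNA pseudogenes as the scale, 0.39 with the summed nuclear TPM and 0.95 with median-of-ratios scaling. Under the last 2 scales the RpS median was 1.10 and 1.86, and the lowest RpS gene stood at 0.29 and 1.10, so the direction held for all 31 genes. None of the 31 passed the limma test under either of these. The numbers at an unadjusted p under 0.05 were 2 and 12, and the smallest adjusted p-values were 0.238 and 0.0668. With 1 mitochondrial library left out the calls were 27 without control 1, 29 without control 2, 25 without knockout 1 and 29 without knockout 2. RpS3A lost its call in each of these 4 fits, RpS24 in all but that without control 2, RpS23 without control 1 or knockout 1, and RpS19a and RpS28b without knockout 1.

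The share that the RpS genes take of all nuclear-encoded TPM uses no reference outside the mRNAs. It was 3.65% and 4.76% in the control mitochondria (4.20% ± 0.786, SD, n = 2) and 9.73% and 9.79% in the knockout mitochondria (9.76% ± 0.0455, SD, n = 2). The knockout libraries lay above the controls by more than the spread within either pair, but with 2 libraries against 2 an exact permutation test cannot give a two-sided p-value below 0.333. The cytosolic share was 0.684% and 0.992% in controls, 5.90% in knockout library 1 and 0% in knockout library 2. The RpL share followed, at 5.68% and 5.39% in the control mitochondria and 15.1% in each knockout mitochondrial library. The ratio of the RpS sum to the RpL sum was 0.642 and 0.883 in the control mitochondria and 0.645 and 0.647 in the knockout mitochondria, so the knockout values lay within the range of the controls. Among the 100 nuclear genes with the highest TPM, 6 and 10 were RpS genes in the control mitochondria and 25 and 26 in the knockout mitochondria.

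**Figure D2:**
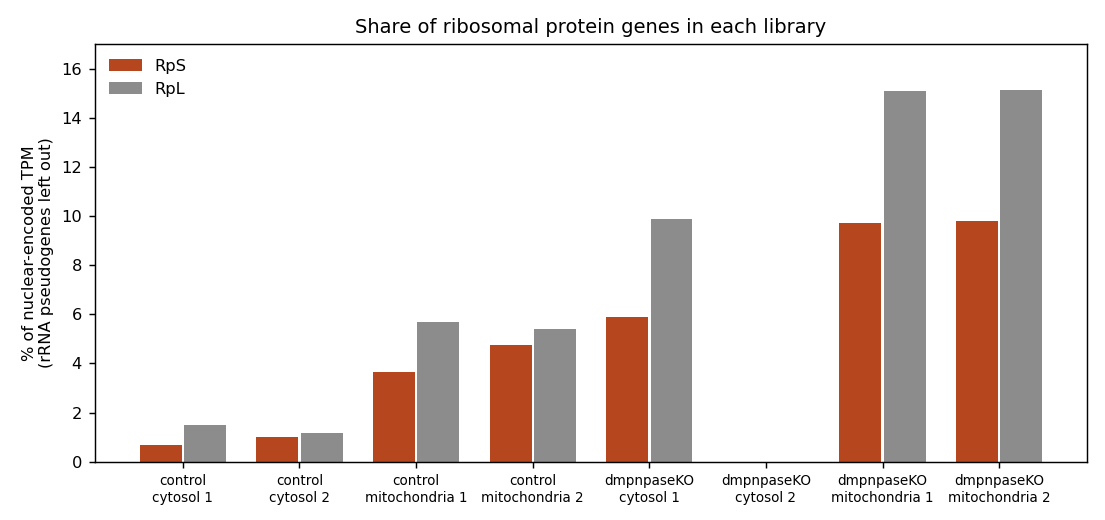
Share of the nuclear-encoded TPM, with the rRNA pseudogenes left out, taken by the RpS and by the RpL genes in each of the 8 libraries. Each bar is 1 library. The RpS bars stand at 9.73% and 9.79% in the knockout mitochondria against 3.65% and 4.76% in the control mitochondria, and knockout cytosol 2 has no bar.

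Markers of larval tissues moved between the same libraries. The fat body markers summed to 45.6 and 26.5 TPM in the control mitochondria and to 0.176 and 0.0590 TPM in the knockout mitochondria, and all 4 that were tested of 6 fell. The cuticle markers summed to 97.2 and 42.2 TPM in the control mitochondria but to 4.21 and 0.970 TPM in the knockout mitochondria, and 4 of 4 fell. The gut protease genes went from 33.4 and 7.89 TPM to 277 and 104 TPM, and 5 of 5 rose. The muscle markers went from 20.4 and 11.1 TPM to 145 and 75.4 TPM. All 5 had a change above 0 and 4 of 5 were called higher. The gut and muscle counts stand beside the 78.7% of all tested genes that were called higher. Relative to the summed RpS TPM, the fat body and cuticle markers were again called lower (4 and 4), while none of the gut or muscle genes was called and their medians turned negative, at -1.01 for gut and -1.43 for muscle (limma, 1 and 5 genes with an unadjusted p under 0.05). Without these marker genes in the denominator, a choice made after seeing the data, the RpS share was 4.28% and 5.38% in the control mitochondria and 10.1% in both knockout libraries. The part of tissue composition in the RpS result was otherwise not tested.

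Among the proteins of the body of the subunit, RpS4 had the largest change of all 31 genes on the log2 scale. It was measured at 2.54 and 0.612 TPM in the control mitochondria and at 54.2 and 33.6 TPM in the knockout mitochondria, and at 0.164 and 0.613 TPM in the control cytosol, 4.97 TPM in knockout cytosol 1 and 0 in knockout cytosol 2. The groups of the mitochondrial fraction did not overlap, and the log2 change was 4.25 ± 0.98 (SE, limma adjusted p = 0.00178). RpS23 and RpS2 sit at the decoding centre. RpS23 had 2.20 and 4.16 TPM in the control mitochondria and 55.5 and 27.6 TPM in the knockout mitochondria, with 0 and 0.308 TPM in the control cytosol and 4.4 and 0 TPM in the knockout cytosol. Its higher control value came from library 2, whereas 24 of the 31 genes were higher in control library 1. RpS2, also called string of pearls, had 1.47 and 1.57 TPM in the control mitochondria and 32.0 and 22.9 TPM in the knockout mitochondria, was at 0 in both control cytosol libraries and stood at 5.18 and 0 TPM in the knockout cytosol. The log2 changes were 3.34 for RpS23 and 3.51 for RpS2.

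RpS6 is the substrate of the growth-regulated ribosomal protein kinase that acts below TOR. It had 1.86 and 0.846 TPM in the control mitochondria and 42.9 and 24.6 TPM in the knockout mitochondria, with 0.115 and 0 TPM in the control cytosol and 3.23 and 0 TPM in the knockout cytosol, a log2 change in mitochondria of 3.91 ± 0.83 (SE, adjusted p = 0.0012). RpS7, which takes part in the assembly of the subunit, had 2.10 and 1.91 TPM in the control mitochondria and 48.6 and 22.4 TPM in the knockout mitochondria, was at 0 in both control cytosol libraries and stood at 2.80 and 0 TPM in the knockout cytosol. RpS24 had the smallest ratio of means between the genotypes, at 10.0-fold in TPM. Its values were 1.79 and 3.80 TPM in the control mitochondria and 31.7 and 24.5 TPM in the knockout mitochondria, and it was the most abundant RpS mRNA of control cytosol 1, at 0.941 TPM, with 0.683 TPM in control cytosol 2, 5.66 TPM in knockout cytosol 1 and 0 in knockout cytosol 2. The log2 change of RpS24 in mitochondria was 3.0 ± 1.02 (SE, adjusted p = 0.0142). RpS27, a small zinc-binding protein, was among the 5 smallest changes on the log2 scale, with a ratio of means of 19.3-fold in TPM. It had 0.868 and 0.852 TPM in the control mitochondria, 20.1 and 13.1 TPM in the knockout mitochondria, 0 in both control cytosol libraries and 2.78 and 0 TPM in the knockout cytosol (log2 change 3.23).

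The mRNA of sta, whose protein binds at the back of the subunit and whose name comes from the antennal phenotype of its mutants, had 1.58 and 0.588 TPM in the control mitochondria and 41.0 and 19.5 TPM in the knockout mitochondria. In the cytosol it had 0.103 and 0.441 TPM in the control libraries, against 2.73 and 0 TPM in the knockouts. The log2 change in mitochondria was 3.90 ± 0.83 (SE, adjusted p = 0.0012). RpS30 is made as a fusion with a ubiquitin-like protein. It had 1.70 and 0.921 TPM in the control mitochondria, 37.4 and 14.9 TPM in the knockout mitochondria, 0 in both control cytosol libraries, and 1.32 and 0 TPM in the knockout cytosol, with a log2 change of 3.47. RpS27A, of the head, is made as a fusion with ubiquitin. It had 2.61 and 1.36 TPM in the control mitochondria, 50.1 and 30.5 TPM in the knockout mitochondria, 0 and 0.285 TPM in the control cytosol, and 4.38 and 0 TPM in the knockout cytosol, with a log2 change of 3.83. The 2 fusion genes thus lay on either side of the median of 3.6.

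Of the other head proteins, RpS3 lies at the mRNA entry channel. It had 1.34 and 0.905 TPM in the control mitochondria and 35 and 14.9 TPM in the knockout mitochondria, with 0.262 and 0 TPM in the control cytosol and 2.65 and 0 TPM in the knockout cytosol, and changed by 3.53 on the log2 scale. RpS25 had 2.05 and 1.23 TPM in the control mitochondria and 52.8 and 30.2 TPM in the knockout mitochondria, with 0 and 0.332 TPM in the control cytosol and 2.37 and 0 TPM in the knockout cytosol. RpS18 had 1.57 and 0.546 TPM in the control mitochondria and 44.2 and 18.3 TPM in the knockout mitochondria, with 0 and 0.287 TPM in the control cytosol and 1.99 and 0 TPM in the knockout cytosol. Both were among the 5 largest changes, with 4.01 ± 0.85 for RpS25 and 3.93 ± 0.79 for RpS18 (SE, limma adjusted p = 0.0012 and 0.00104). RpS29, another small zinc-binding protein, was among the 5 smallest, and its knockout values differed most between libraries. It had 1.03 and 0.448 TPM in the control mitochondria and 26.8 and 7.41 TPM in the knockout mitochondria, was at 0 in the control cytosol and stood at 2.18 and 0 TPM in the knockout cytosol (log2 change 3.18). RpS3A, the only tested member on chromosome 4 and a protein of the platform, had the highest level of any RpS gene in knockout cytosol 1, at 8.83 TPM. It had 1.83 and 3.62 TPM in the control mitochondria and 44.9 and 25.3 TPM in the knockout mitochondria, with 0.202 and 1.32 TPM in the control cytosol and 0 in knockout cytosol 2. Its log2 change of 3.29 ± 1.14 (SE) had the highest adjusted p of the members, 0.0156.

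RpS9, RpS13, RpS15, RpS16, RpS20, RpS21 and RpS26, which were not named by rule, changed by 3.25 for RpS21 up to 3.82 for RpS15. In every one of the 31 genes knockout mitochondria 1 lay above knockout mitochondria 2, by 1.29-fold to 3.62-fold with a median of 2.10-fold, while the control libraries differed by a median of 2.13-fold, and by 10.4-fold for RpS14a. The order of the genes was partly shared in the pairs of libraries compared, within a group and across groups. Not every pair was compared. Spearman's rho over the 31 genes was 0.79 between the knockout mitochondrial libraries and 0.61 between the control mitochondrial libraries. Across groups it was 0.60 between control and knockout mitochondria 2. Knockout cytosol 1 gave 0.69 with control mitochondria 2 and 0.51 with knockout mitochondria 1. This is a description across genes that share each library and are not independent replicates.

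**Figure D3:**
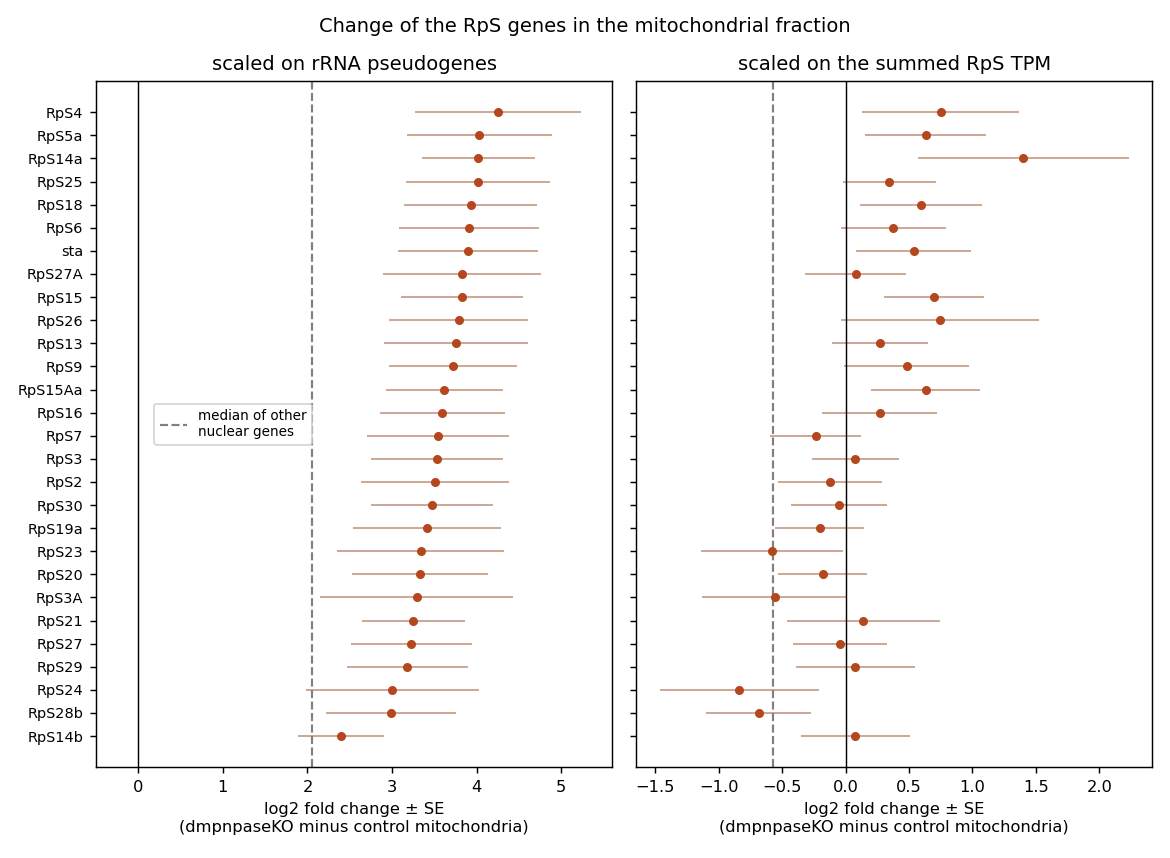
Change of the tested RpS genes reported here between knockout and control mitochondria, as log2 fold change ± SE from limma, with libraries scaled on the rRNA pseudogenes (left) or on the summed RpS TPM (right). Points are genes and the dashed line is the median of the other nuclear genes. Adding 1 before the log lowers the change of genes at low levels, so the distance from this line depends on the value added. On the left every gene drawn lies between 2.40 and 4.25, and on the right the genes spread on both sides of 0, from -0.84 to 1.40.

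Whether single members changed relative to the set was asked by scaling the 4 mitochondrial libraries to the same summed RpS TPM. No member passed the limma test, and 1 of 31 had an unadjusted p under 0.05. Over all 475 genes tested on this scale, 0.211% were called higher and 8.42% lower. RpS14a stood highest at 1.40 ± 0.83 (SE, adjusted p = 0.361), and RpS24 stood lowest at -0.84 ± 0.63 with RpS28b at -0.68 ± 0.41 (SE, adjusted p = 0.457 and 0.372). The median over the members was 0.08, and that over other nuclear genes was -0.57. Without control mitochondria 1 the members ran from -1.58 to 2.67 with a median of 0.43, while the median of all 475 genes was -0.26. The values relative to the set thus depend on that library.

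Several members have a second gene for the same protein, and the share of the pair was looked at in each library. RpS5b, RpS10a, RpS19b and RpS28a are best known from the germ line of adult flies. RpS5a, the general form of a protein of the head, had 1.74 and 0.604 TPM in the control mitochondria and 46.5 and 22.3 TPM in the knockout mitochondria, with 0.112 and 0.188 TPM in the control cytosol and 3.64 and 0 TPM in the knockout cytosol (log2 change 4.03 ± 0.86, SE, adjusted p = 0.0012). RpS5b was listed above 0 only in knockout mitochondria 1, at 0.210 TPM, where RpS5a was 222 times higher. RpS19a, which is needed for maturation of the small-subunit rRNA in other eukaryotes, had 1.6 and 1.33 TPM in the control mitochondria and 38.2 and 15.8 TPM in the knockout mitochondria, with 0 and 0.374 TPM in the control cytosol and 3.98 and 0 TPM in the knockout cytosol. RpS19b reached 0.268 TPM in control cytosol 2 and 0.0708 TPM in knockout mitochondria 1 and was at 0 in the other 6 libraries. RpS28a was at 0 in all 8 libraries, as was RpS28-like, while RpS28b had 1.53 and 1.87 TPM in the control mitochondria, 30.9 and 12.9 TPM in the knockout mitochondria, 0 in both control cytosol libraries, and 2.33 and 0 TPM in the knockout cytosol (log2 change 2.99). RpS10a was above 0 in control mitochondria 1 alone, at 0.0272 TPM.

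RpS15Aa had 0.861 and 0.375 TPM in the control mitochondria and 31.7 and 10.5 TPM in the knockout mitochondria, with 0 in both control cytosol libraries and 1.59 and 0 TPM in the knockout cytosol. Its partner RpS15Ab had 0.0924 and 0 TPM in the control mitochondria, 0.536 and 0.145 TPM in the knockout mitochondria and 0.135 TPM in knockout cytosol 1, so RpS15Aa was between 9.32 and 72.5 times higher in each library where both were listed. The 2 genes of RpS14, a platform protein, were closer. RpS14a lies on chromosome X at 7933742 to 7934677 and RpS14b at 7934898 to 7935792, both on the plus strand and 220 bases apart (BDGP6, Ensembl annotation). RpS14a had 1.14 and 0.11 TPM in the control mitochondria and 31.9 and 17 TPM in the knockout mitochondria, was at 0 in the control cytosol and stood at 1.08 and 0 TPM in the knockout cytosol (log2 change 4.02 ± 0.66, SE, adjusted p = 0.000741). RpS14b had 0.481 and 0.154 TPM in the control mitochondria and 8.49 and 4.00 TPM in the knockout mitochondria, with 0 and 0.487 TPM in the control cytosol and 0.295 and 0 TPM in the knockout cytosol (log2 change 2.40 ± 0.51, SE, adjusted p = 0.0012). RpS14b made up 21% and 19% of the pair in the knockout mitochondria, 21.5% in knockout cytosol 1, and 29.7% and 58.3% in the control mitochondria. The change of this share was not tested. The members of a pair are alike in sequence, so the division of reads between them by the authors' quantification is uncertain.

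**Figure D4:**
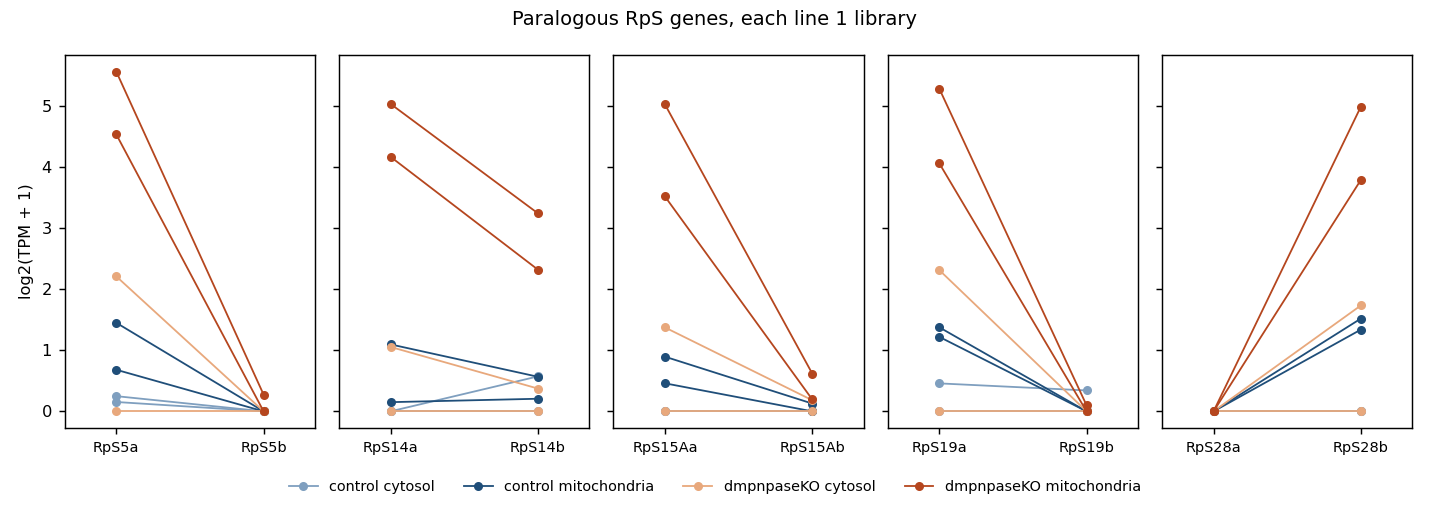
Level of both genes of 5 paralogous pairs in each library, as log2(TPM + 1). Each line joins the 2 genes in 1 library, coloured by group. RpS5b, RpS15Ab, RpS19b and RpS28a stay near 0 in every library, and RpS14b is at 8.49 and 4.00 TPM in the knockout mitochondria, below RpS14a at 31.9 and 17 TPM.

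Genes that act on the small subunit were read beside the RpS genes. Of 25 genes for initiation factors and proteins bound to the subunit, 10 were tested in the mitochondrial fraction. All 10 had a change above 0, with a median log2 change of 2.33, and 9 were called higher in the knockout. This count is close to the 78.7% of all tested genes called higher, and the median to that of 2.25 over all tested nuclear genes. The minimum mean level favours genes that are high in the knockout mitochondria, so these rises are in part set by it. For example, eIF3i had 4.97 and 2.49 TPM there and at most 0.225 TPM in any other library. The factors below the minimum level were not tested. Rack1, a scaffold protein that sits on the head of the subunit, stood at 1.78 and 0.955 TPM in controls but at 41.0 and 23.0 TPM in knockouts (3.80 ± 0.91, SE, limma adjusted p = 0.00203). The helicase eIF4A changed by 3.37, the 6 tested subunits of the eIF3 complex by 1.87 for eIF3a to 2.38 for eIF3c, and eIF1A by 1.72. The exception was pAbp, the poly(A)-binding protein, which stood at 4.23 and 8.76 TPM in controls but at 47.8 and 46.1 TPM in knockouts (2.79 ± 1.29, SE, adjusted p = 0.0575). The 6 eIF3 subunits were low in the control mitochondria, where the highest value was 0.289 TPM, for eIF3c in library 1. Adding 1 lowers changes from such levels, so their log2 changes cannot be set against the RpS median of 3.6. Relative to the summed RpS TPM, the median over the 10 tested genes was 0.18, beside 0.08 for the RpS genes. Of these 10, 7 lay above 0 and none was called (limma). Of 10 genes for assembly factors of the subunit, 6 were found in the table and none reached the minimum level for a test. The mRNAs of the mitochondrial genome, which were precipitated in the same libraries, had a median log2 change of 3.24 over 11 genes, and none passed the test in this fraction, none having an unadjusted p under 0.05.

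In the cytosolic fraction no difference in RpS mRNAs between dmpnpaseKO larvae and controls passed the test. The 2 knockout libraries gave opposite pictures: 30 of the 31 genes lay above both controls in knockout library 1, and every RpS gene was listed at 0 in knockout library 2. Of all 475 genes, 77.7% lay above both controls in knockout library 1. In limma 0 of 31 passed, 0 had an unadjusted p under 0.05, and all adjusted p-values were 1. Of all genes tested, 0% were called and 47 had an unadjusted p under 0.05. The median log2 change was 0.61, above 0 in 29 of 31 genes, against 0.30 over all tested genes. Without knockout cytosol 2 the median was 1.58 with 0 called, and 19 genes had an unadjusted p under 0.05. Without knockout cytosol 1 it was -0.10. In knockout cytosol 1 the levels reached those of the control mitochondria, with 26 of the 31 genes above both control mitochondrial libraries, compared with 54.7% of all tested genes. All 31 lay below both knockout mitochondrial libraries, as did 91.2% of all tested genes, and the lower of those was higher than knockout cytosol 1 by 2.87-fold for RpS3A up to 29.4-fold for RpS21. RpS21, a protein of the body, had 24.9 and 10.0 TPM in the knockout mitochondria but 0.342 TPM in knockout cytosol 1, beside 1.48 and 0.341 TPM in the control mitochondria.

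The difference between the 2 fractions in the response to the loss of DmPNPase was tested directly. The log2 change in mitochondria minus that in the cytosol was 2.15 or more, the value of RpS28b, and 12 of the 31 genes passed the limma test, all with the larger change in mitochondria. Over all 475 genes, 30.5% passed in this direction and 0.632% in the other. The minimum mean level favours genes that are high in the knockout mitochondria, so these counts and shares are in part set by it. With no minimum level, 2155 of 11606 genes passed with the larger change in mitochondria, and the median difference of all genes was 0.14. Among the 12 were RpS14a at 3.52 ± 0.94 and RpS25 at 3.51 ± 1.21 (SE, adjusted p = 0.033 and 0.045), and the highest adjusted p of the 12 was 0.0469. The count moved with single libraries, from 31 without knockout cytosol 1 to 6 without knockout cytosol 2, 2 without knockout mitochondria 1, 8 without knockout mitochondria 2 and 0 without either library of the control cytosol or either of the control mitochondria. It was also 0 on the unscaled TPM, on the summed nuclear TPM and on median-of-ratios scaling.

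In control larvae the mitochondrial fraction gave more RpS mRNA than the cytosol in most genes, but the difference did not pass the test. In 28 of the 31 genes both mitochondrial libraries lay above both cytosolic libraries, compared with 73.1% of all tested genes. Among the exceptions were RpS4 and RpS14b, each with a cytosolic value above a mitochondrial value. The median log2 difference was 0.79, and 30 of 31 were above 0. In limma 0 of 31 passed and 0 had an unadjusted p under 0.05. The knockout cytosol libraries are in neither group but share the fit and its estimate of the spread. The median difference was 0.78 without knockout cytosol 1 and 0.78 without knockout cytosol 2. With all libraries kept, the lowest adjusted p of limma was 0.654, for RpS7, while 1.05% of all genes tested passed. In the control cytosol 13 of the 31 genes were at 0 in both libraries and 7 were above 0 in both, among them RpS3A, RpS4, RpS5a, RpS20, RpS24 and sta.

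Because J2 binds double-stranded RNA, the annotation was searched for features that could place RNA of both strands at these genes. The 31 tested genes lie on chromosomes 2L (5), 2R (6), 3L (3), 3R (8), 4 (1) and X (8). In 6 of them exons overlapped exons of a gene on the opposite strand. Among them, the overlap was 512 bases for RpS9 with the antisense RNA gene asRNA:CR45874, 55 for RpS28b, 44 for RpS20, 10 for RpS29 and 9 for RpS15. The other 25 had none. RpS9 changed by 3.72, near the median of the set. Introns or exons of 12 tested genes hold snoRNA genes, with 14 in RpS5a, 7 in RpS7 and 5 in RpS16. The exonic length of the tested genes ran from 535 to 1864 bases with a median of 899, and its Spearman's rho with the mean TPM in the knockout mitochondria was 0.38 over the 31 genes. The deposited values do not separate the strands, and no library of RNA before precipitation was analysed here, so a higher level in the precipitate and a higher level in the fraction cannot be told apart.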

How the data were processed

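The authors quantified paired-end reads of 42 bp from directional libraries with Salmon 0.11.3 against the BDGP6 cDNA of Ensembl release 94, and deposited a TPM value for each gene. The step from transcripts to genes is not given in the sources used here. FlyBase identifiers were matched to symbols for 13746 of 13970 genes. TPM was divided by the mean of 8 rRNA pseudogenes, set to the mean over libraries, and taken as log2(scaled TPM + 1), so fold changes of low genes are understated. The 475 genes whose mean reached 1 TPM were fitted with limma 3.58.1 (R 4.3.3) over 4 group means with a mean-variance trend, with Benjamini-Hochberg adjustment over all of them and a threshold of 0.05. The fit on the summed RpS TPM used the 4 mitochondrial libraries alone. The code was tested on simulated data. The members, gene lists and tests were chosen with earlier results of these data known. Genes were named by rule: the 8 with the highest mean TPM, the 5 largest and 5 smallest changes in mitochondria, all paralogous pairs, and sta, RpS27A, RpS30, RpS6, RpS3 and RpS2. Some members are counted in the totals but not reported here by name. Gene positions come from the Ensembl release 115 annotation of BDGP6. The alternatives were other scalings, pseudocounts and minimum levels, no trend, a replicate block and leaving out each library. Figures were drawn with matplotlib 3.10.9.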

Additional observations from a re-analysis of the deposited data

Results flagged for a closer look

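The response of the RpS genes to the loss of DmPNPase differed between the mitochondrial and the cytosolic fraction in 12 of the 31 genes tested, by limma's test of the difference itself (change in mitochondria minus change in the cytosol, log2 scale). Among them, the differences were 3.52 for RpS14a, 3.51 for RpS25, 3.48 for sta, 3.47 for RpS18, 3.21 for RpS15, 3.05 for RpS21, 3.03 for RpS16, 2.96 for RpS15Aa, 2.89 for RpS30 and 2.68 for RpS14b. The 12 of 31 must be read beside all 475 genes tested, of which 30.5% passed with the larger change in mitochondria. Both are in part set by the minimum mean level, which favours genes that are high in the knockout mitochondria. All 12 genes were at 0 in knockout cytosol 2, where only 61 genes of the table were above 0. Without that library the median difference was 1.99 over the RpS genes and 1.51 over all genes. Groups of 2 libraries are too small for a test of single libraries.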

How the results depend on the processing

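The 31 calls in the mitochondrial fraction became 0 with scaling on the summed nuclear TPM, 0 with median-of-ratios scaling, 17 with a pseudocount of 0.1 and 5 of the 6 genes left with a minimum mean of 10 TPM. Leaving out 1 library gave 25 to 31. Gene by gene, all 564 values under the alternatives were above 0 and 95 lost the call. RpS3A lost it without any 1 of the 4 mitochondrial libraries. The 12 calls of the difference between fractions became 7 with the geometric mean of the pseudogenes, 4 without a minimum level, 31 with a pseudocount of 10, and 0 with unscaled TPM, scaling on the summed nuclear TPM, median-of-ratios scaling, a pseudocount of 0.1, a minimum of 10 TPM or no trend, and lay between 0 and 31 when 1 library was left out. The count relative to the summed RpS TPM stayed at 0 wherever both libraries of each group were kept. Without control mitochondria 1 the values spread from -1.58 to 2.67. The cytosolic median of 0.61 ran from -0.10 without knockout cytosol 1 to 1.58 without knockout cytosol 2. With the replicate number as a block, the calls were 31 in mitochondria, 0 in the cytosol, 21 for the difference and 0 for the other comparisons. Deviations of same-numbered libraries correlated at 0.68 in mitochondria and -0.01 in the cytosol, and the labels do not say what a number shares, so the samples were not paired. The causes were not tested. Depth is unknown, and values of 0 in the cytosolic libraries limit every comparison with them.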
